A study of Mus musculus with 15 samples.

Results

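The genes described here encode 9 transcription factors, chosen as a list of factors that pattern or maintain the connective tissue of the lung: Tbx2, Tbx3, Tbx4, Tbx5, Foxf1, Foxf2, Tcf21, Gata6 and Hoxa5. All 9 genes were measured, by 21 probe sets that carry only 1 of these symbols, among 18193 genes and 45100 probe sets on the array. Each gene was followed on its brightest probe set, and the 12 other probe sets were used as a second reading.

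The samples were fibroblasts sorted from whole lungs of female immunodeficient NSG mice of 6 to 8 weeks, in 5 groups of 3 arrays each. The healthy group came from age-matched mice without cancer cells. The other mice received human breast cancer cells through the tail vein, either of the line MDA-MB-231 (MDA) or of MDA-MB-231-LM2 (MDA-LM2), which was derived from it and colonizes lungs more readily, and lungs were taken at week 1 (MDA micro and MDA-LM2 micro, the micrometastatic stage) or at week 3 (MDA macro and MDA-LM2 macro, the macrometastatic stage). Each replicate held cells of 1 to 3 mice, and at each week mice of the MDA and MDA-LM2 groups with similar metastatic burden had been selected. The stage was set by the week, so stage and time after injection cannot be told apart. Cells were kept if they carried CD140a or CD140b (Pdgfra, Pdgfrb) and lacked markers of blood, endothelial and epithelial cells, and their RNA was amplified before labelling.

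The T-box genes of the list lie in neighbouring pairs in the mouse genome. Tbx4 and Tbx5 switch on Fgf10 in the mesenchyme of the mouse lung bud and are needed for branching, and Tbx2 and Tbx3 are repressors that keep that mesenchyme dividing. Foxf1 and Foxf2 are forkhead factors that answer to hedgehog signals from the epithelium. Tcf21 is a basic helix-loop-helix factor of lung mesenchyme and of its lipid-storing fibroblasts, Hoxa5 sets regional identity along the airway, and Gata6 is a zinc-finger factor of lung epithelium that smooth muscle and mesothelial cells also make.

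In the GRCm38.p6 annotation Tbx2 (chr11:85832615-85841948) lies next to Tbx4 (chr11:85886367-85916097), and Tbx3 (chr5:119670534-119684724) lies next to Tbx5 (chr5:119796514-119885220). Foxf2 (chr13:31625816-31631406) sits between Foxq1 and Foxc1, Hoxa5 (chr6:52201754-52204587) between Hoxa4 and Hoxa6, Tcf21 (chr10:22817263-22820143) between Tbpl1 and Eya4, and Foxf1 (chr8:121084386-121088154) between Irf8 and Mthfsd. The 250 bases before the annotated start are shown for Tcf21 and Foxf2, which were called lower at the macrometastatic stage, and for Hoxa5, which passed the test in no comparison. They are RefSeq sequences read 5′ to 3′ on the strand of the gene, at chr10:22820144-22820393 (minus strand), chr13:31625566-31625815 (plus strand) and chr6:52204588-52204837 (minus strand). Capitals mark the motifs found among 5 that were searched on both strands.
Tcf21: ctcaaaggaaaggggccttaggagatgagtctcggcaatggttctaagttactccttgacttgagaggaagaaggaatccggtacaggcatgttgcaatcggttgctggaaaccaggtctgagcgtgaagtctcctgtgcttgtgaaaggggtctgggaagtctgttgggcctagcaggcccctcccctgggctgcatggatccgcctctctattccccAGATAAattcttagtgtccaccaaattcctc
Foxf2: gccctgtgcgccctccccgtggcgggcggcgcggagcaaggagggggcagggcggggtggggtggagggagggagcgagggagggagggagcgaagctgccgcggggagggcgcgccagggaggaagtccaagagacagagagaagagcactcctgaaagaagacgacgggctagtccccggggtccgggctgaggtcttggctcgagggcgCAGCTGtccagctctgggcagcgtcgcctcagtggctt
Hoxa5: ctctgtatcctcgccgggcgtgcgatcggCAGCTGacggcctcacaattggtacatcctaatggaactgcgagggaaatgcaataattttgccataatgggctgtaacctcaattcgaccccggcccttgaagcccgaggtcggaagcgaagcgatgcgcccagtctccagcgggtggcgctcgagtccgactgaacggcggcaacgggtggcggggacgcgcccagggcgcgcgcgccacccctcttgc

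The Tcf21 window held 52.4% G or C and 5 CpG pairs, close to the medians over 32851 promoters of 52.4% and 6. Foxf2 and Hoxa5 had windows rich in G and C, at 71.6% with 21 CpG pairs and at 63.6% with 28 CpG pairs. A GATA motif (AGATAA) began 31 bases before the Tcf21 start, a motif that 9.99% of all windows held. An E-box (CAGCTG), the kind of motif that basic helix-loop-helix factors read, began 38 bases before the Foxf2 start and 221 bases before the Hoxa5 start, and 13% of all windows held it. The T-box motif GGTGTGA (3.33% of windows), the forkhead motif TGTTTAC (3.17%) and the TATA box TATAAA (12.4%) were found in none of these 3 windows, which says only that these letters are not there. A window for Tbx4 was also matched, but it starts inside the gene and is not shown.

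Values below are log2 of the deposited intensity, on which a difference of 1 is a doubling, and groups are compared only within a probe set. Every adjusted p is from limma with Benjamini-Hochberg adjustment over all 18193 genes, two-sided, and a gene was called when it was under 0.05. Since a replicate is 1 mouse or a small pool, these p-values measure the spread between such samples. Whether arrays of different groups overlapped is given as a description. The share of all genes without overlap was not counted. The 5 groups carried the defining fibroblast genes: Col1a1, a fibrillar collagen gene, read between 13.67 and 14.02 on all 15 arrays. Of the genes used to exclude cells, Ptprc, Itgam and Epcam stayed at or under 6.71 on every array and Pecam1 at or under 8.27. Pdgfra and Pdgfrb, used to select the cells, read at least 11.7 and 11.67.

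Tcf21 fell at the macrometastatic stage in both models, to 53.8% of the healthy level in MDA macro and 53.7% in MDA-LM2 macro. Healthy arrays read 12.64, 12.86 and 12.5. MDA micro arrays read 13.02, 12.91 and 13.07, and MDA-LM2 micro arrays 12.61, 12.39 and 12.84. MDA macro arrays read 11.8, 11.58 and 11.92, and MDA-LM2 macro arrays 11.61, 11.72 and 11.98. All 6 macro arrays lay below all 9 others. The change from healthy was -0.90 ± 0.15 (SE, 3 arrays per group) in MDA macro (adjusted p = 0.00882) and -0.90 ± 0.15 in MDA-LM2 macro (adjusted p = 0.00626); both comparisons use the same healthy arrays. The shares of all genes called lower in them were 6.8% and 8.98%. Over both lines, macro against micro arrays differed by -1.04 ± 0.11, a 2.05-fold fall (adjusted p = 2.58e-05), in a comparison in which 12.3% of genes were called lower. The second Tcf21 probe set gave the same direction: it read 7.56 to 8.43 in healthy and 7.65 to 8.79 over the micro arrays, against 6.19 to 6.64 over the macro arrays, and its stage change was -1.79 ± 0.18 (adjusted p = 1.92e-05 over all probe sets). Both macro calls for Tcf21 held in all 6 fits that left out 1 array.

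**Figure D1:**
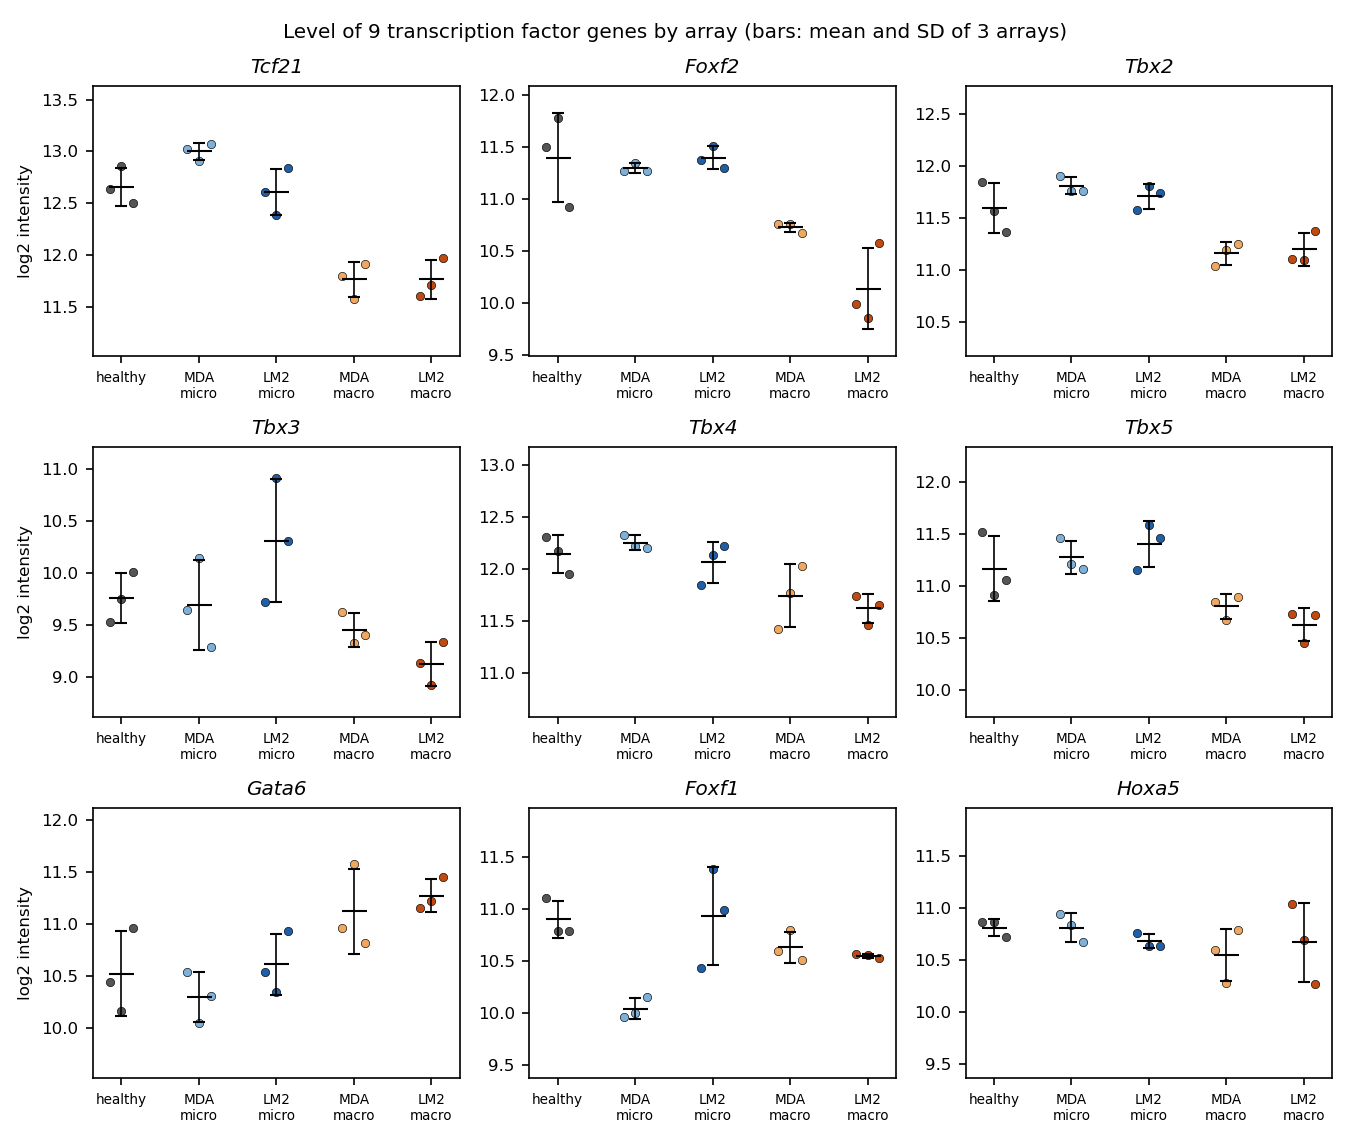
Log2 intensity (y axis) of the brightest probe set of each gene on the 15 arrays, by group (x axis; LM2 stands for MDA-LM2); points are arrays, and bars are the mean and SD of 3 arrays. All 6 macro arrays are below the other 9 for Tcf21, and Foxf1 is lowest in MDA micro, at 9.96 to 10.15.

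Foxf2 fell to 41.8% of the healthy level in MDA-LM2 macro on its brightest probe set. Healthy arrays read 11.5, 11.78 and 10.93, MDA micro arrays 11.27, 11.35 and 11.27, and MDA-LM2 micro arrays 11.38, 11.51 and 11.3. MDA macro arrays read 10.76, 10.76 and 10.68, and MDA-LM2 macro arrays 9.99, 9.86 and 10.58. Every macro array was therefore below every healthy and micro array, and the 3 MDA-LM2 macro arrays were below the 3 MDA macro arrays. Against healthy the change was -1.26 ± 0.27 in MDA-LM2 macro (adjusted p = 0.0169) and -0.67 ± 0.21 in MDA macro, which missed the threshold (adjusted p = 0.0779). The third healthy array was the low one, and without it the MDA macro change was -0.91 with an adjusted p of 0.0148. The MDA-LM2 macro call was lost without the first healthy array (-1.21, adjusted p = 0.051), the first MDA-LM2 macro array (-1.18, 0.059) or the second (-1.11, 0.0642), and with the replicate number as a block (adjusted p = 0.0538). Macro against micro over both lines, Foxf2 fell by 0.91 ± 0.15 on the log2 scale (adjusted p = 0.000552). The second Foxf2 probe set read between 6.31 and 6.72 on all 15 arrays and was called in no comparison. It is dim, below the array medians of 7.44 to 7.54, so it says little about a change of the gene. In MDA macro its arrays lay below those of healthy lungs by 0.13 ± 0.11. On the mean of both probe sets, in which the dim one counts equally, the MDA-LM2 macro change was -0.65 (adjusted p = 0.0278). The stage change on that mean was -0.46 (adjusted p = 0.00263).

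The 4 T-box genes Tbx2, Tbx3, Tbx4 and Tbx5 were all called lower at the macrometastatic than at the micrometastatic stage, where 12.3% of all genes were. Tbx2 read 11.58 to 11.9 (median 11.76) over the 6 micro arrays and 11.04 to 11.38 (median 11.15) over the 6 macro arrays, a change of -0.58 ± 0.08 (adjusted p = 0.000211). Tbx5 read 11.16 to 11.59 (median 11.33) over the micro arrays and 10.45 to 10.9 (median 10.72) over the macro arrays, a change of -0.62 ± 0.11 (adjusted p = 0.000801). For both genes the 2 stages did not overlap on any array. Tbx4 read 11.84 to 12.32 (median 12.21) over the micro arrays and 11.42 to 12.03 (median 11.69) over the macro arrays, and the third MDA macro array, at 12.03, reached into the micro range (change -0.48 ± 0.11, adjusted p = 0.00528). Tbx3 changed between stages by -0.24 in the MDA model and by -1.19 in the MDA-LM2 model. In the MDA model its macro arrays lay within the range of the micro arrays. Tbx3 also varied widely between replicates: micro arrays spread from 9.29 to 10.91 and macro arrays from 8.92 to 9.62. Over both lines its change of -0.72 ± 0.23 was only just called (adjusted p = 0.0332).

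Tbx3 lost that call in 6 of 12 fits that left out 1 array, those without the second MDA micro array, the second or the third MDA-LM2 micro array, or any MDA-LM2 macro array; over the 12 fits its change was -0.86 to -0.53, with adjusted p between 0.0128 and 0.0757. The stage calls of Tbx2, Tbx4, Tbx5, Foxf2, Tcf21 and Gata6 held in all 12.

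Set against healthy lungs, fewer of the T-box genes were called. In MDA macro none of the 4 was called: the changes were -0.44 ± 0.15 for Tbx2 (adjusted p = 0.0986), -0.40 ± 0.18 for Tbx4 (0.183), -0.35 ± 0.18 for Tbx5 (0.218) and -0.32 ± 0.16 for Tbx3 (0.223). In MDA-LM2 macro, Tbx3 and Tbx4 were called lower. Tbx3 read 9.13, 8.92 and 9.33 there against 9.53, 9.75 and 10.01 in healthy lungs (change -0.64 ± 0.17, adjusted p = 0.0329). Tbx4 read 11.74, 11.46 and 11.65 against 12.3, 12.17 and 11.95 (change -0.52 ± 0.14, adjusted p = 0.0327). In both cases the groups did not overlap. Tbx5 (-0.53 ± 0.18, adjusted p = 0.0724) and Tbx2 (-0.40 ± 0.16, adjusted p = 0.112) missed the threshold, but passed it in a fit of all 15 arrays (adjusted p = 0.0302 and 0.0427), in which Tbx3 did not (0.1). The Tbx4 call was kept only in the fit without the third healthy array, out of 6 fits that left out 1 array (adjusted p from 0.0308 to 0.102), and the Tbx3 call only in those without the first healthy or the third MDA-LM2 macro array (0.0305 to 0.103). With the replicate number as a block the Tbx4 adjusted p was 0.058.

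Probe sets of the same T-box gene did not always move alike. Of the 5 for Tbx3, 3 were called lower in MDA-LM2 macro against healthy, where 9.65% of all probe sets were. The one that moved most, 1437479_x_at, read 8.97, 8.79 and 8.47 in healthy lungs and 7.33, 7.34 and 7.71 in MDA-LM2 macro. In MDA macro it read 8.55, 7.93 and 8.72. Its change in MDA-LM2 macro was -1.28 ± 0.17 (adjusted p = 0.0037 over all probe sets). A suffix of x_at means that some of its probes can also bind other transcripts. Another, 1444594_at, was the only T-box probe set called lower in MDA macro, where 6.55% of all probe sets were. It read 6.2 to 6.33 there against 7.09 to 7.3 in healthy lungs (-0.96 ± 0.12, adjusted p = 0.00382). Both ranges are dim, below the array medians of 7.44 to 7.54. The second Tbx4 probe set was called lower between stages like the first (-0.47 ± 0.12, adjusted p = 0.00961), whereas the second Tbx5 probe set, at 8.59 to 10.48, was called in no comparison.

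**Figure D2:**
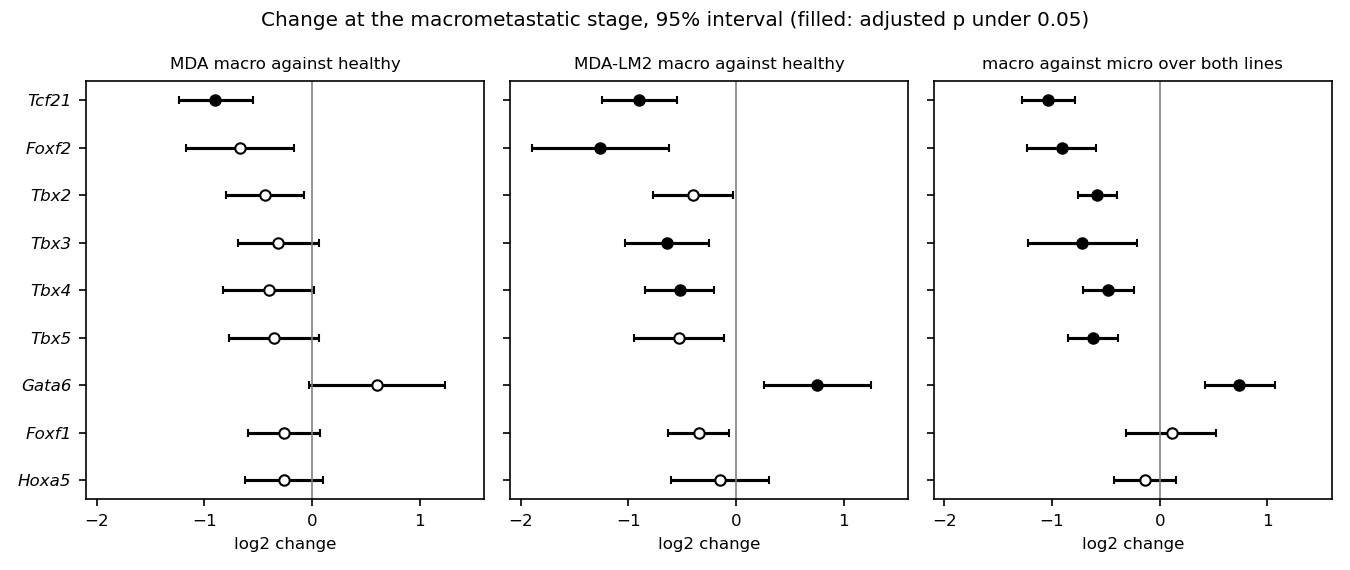
Log2 change (x axis) of the 9 genes (y axis) in 3 comparisons, with 95% intervals from limma; filled points had an adjusted p under 0.05. Tcf21 is called lower in all 3 panels, and Gata6 lies to the right of 0 in each, called in the MDA-LM2 macro panel and in the stage panel.

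Gata6 was the only gene of the list called higher on its brightest probe set. It read 10.44, 10.16 and 10.96 in healthy lungs, 10.54, 10.05 and 10.31 in MDA micro, and 10.54, 10.35 and 10.93 in MDA-LM2 micro. MDA macro arrays read 10.96, 11.58 and 10.82, and MDA-LM2 macro arrays 11.15, 11.22 and 11.45. The MDA-LM2 macro arrays stood above all healthy and micro arrays, and the MDA macro arrays overlapped both. Macro against micro over both lines, the change was 0.74 ± 0.15 (adjusted p = 0.00229), where 18.8% of all genes were called higher. Against healthy it was 0.75 ± 0.21 in MDA-LM2 macro (adjusted p = 0.0427; 13.6% of genes called higher) and 0.60 ± 0.27 in MDA macro (adjusted p = 0.178; 8.43% called higher). The MDA-LM2 call held only in the fit without the third healthy array among 6 that left out 1 array (adjusted p from 0.0111 to 0.123), and on the mean of the 3 probe sets the change was 0.33 (adjusted p = 0.136). Another Gata6 probe set rose between stages as well (0.59 ± 0.16, adjusted p = 0.0154 over all probe sets), and the third was called in no comparison.

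Foxf1 was not called between stages on its brightest probe set (0.11 ± 0.19, 95% interval -0.31 to 0.52, adjusted p = 0.708), whereas its other probe set was called higher (0.40 ± 0.11, adjusted p = 0.0178 over all probe sets). Its lowest values were those of MDA micro, at 9.96, 10 and 10.15, against 11.1, 10.79 and 10.79 in healthy lungs and 10.43, 11.38 and 10.99 in MDA-LM2 micro. The MDA micro arrays lay below every other array. Across all genes neither difference passed: the change from healthy was -0.86 ± 0.13 (unadjusted p = 0.000323, adjusted p = 0.254), and MDA-LM2 micro differed from MDA micro by 0.90 ± 0.23 (adjusted p = 0.212). In a fit of all 15 arrays the second difference had an adjusted p of 0.0331. The change between stages was 0.60 in the MDA model and -0.38 in the MDA-LM2 model, and the difference between them was -0.98 ± 0.27 (adjusted p = 0.157), or -1.23 with an adjusted p of 0.0298 without the first MDA-LM2 micro array.

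The 2 Foxf1 probe sets disagreed at the macrometastatic stage. The brightest read 10.57, 10.56 and 10.53 in MDA-LM2 macro, below all healthy arrays (-0.34 ± 0.12, adjusted p = 0.0846). The other read 10.51, 10.6 and 10.53 there, above its healthy values of 10.2, 10.04 and 10.1, and was called higher (0.44 ± 0.10, adjusted p = 0.0287 over all probe sets). The direction of Foxf1 in MDA-LM2 macro therefore depended on the probe set, and no direction is given for the gene. In MDA micro both probe sets read below all healthy arrays, the second only just. Its highest MDA micro array read 10.03 and its lowest healthy array 10.04. The change on it was -0.32 ± 0.19 (adjusted p = 0.718 over all probe sets).

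**Figure D3:**
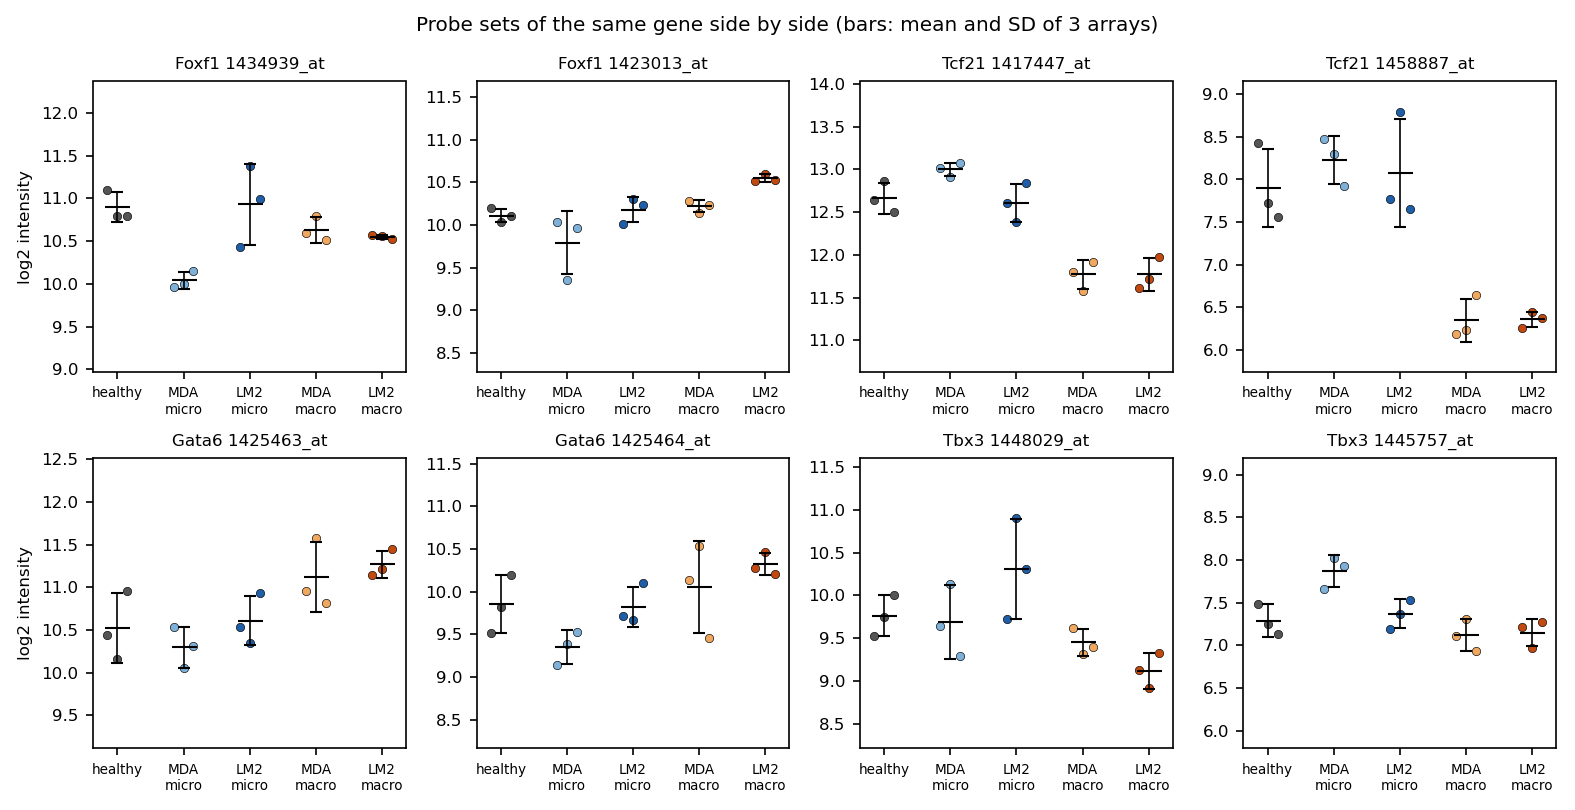
Log2 intensity (y axis) of a pair of probe sets each for Foxf1, Tcf21, Gata6 and Tbx3, by group (x axis; LM2 stands for MDA-LM2); points are arrays, bars the mean and SD of 3 arrays. In MDA-LM2 macro the Foxf1 probe set 1434939_at is below healthy and 1423013_at above it, while both Tcf21 probe sets are lower at the macro stage.

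Hoxa5 was not called in any of the 8 comparisons. Its values ran from 10.72 to 10.86 in healthy lungs, 10.67 to 10.94 in MDA micro, 10.63 to 10.76 in MDA-LM2 micro, 10.28 to 10.79 in MDA macro and 10.27 to 11.04 in MDA-LM2 macro. The stage difference was -0.14 ± 0.13, with a 95% interval of -0.42 to 0.15, so changes within that interval are not excluded by these arrays. A second, x_at probe set varied more (8.96 to 10.98) and was not called either.

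Read by comparison, the micrometastatic stage gave no calls in the list. In MDA micro against healthy 0 of 9 were called by limma, as were 0 of all 18193 genes (0%), while 1542 genes had an unadjusted p under 0.05. Of the list, 2 genes were among these, Foxf1 and Tcf21, the latter with MDA micro arrays all above healthy (0.33 ± 0.13, adjusted p = 0.574). In MDA-LM2 micro against healthy 0 of 9 were called, against 0.583% of all genes, and the changes ran from -0.14 for Hoxa5 to 0.55 for Tbx3. At the macrometastatic stage 1 of 9 was called in MDA macro and 5 of 9 in MDA-LM2 macro, 4 of them lower. Among all genes, 6.8% were called lower and 8.43% higher in the first and 8.98% and 13.6% in the second, and the 5 became 1 to 4 when 1 array was left out. The median change of the 9 genes was -0.35 and -0.52, beside 0.05 and 0.08 over all genes. Between stages 7 of 9 were called, 6 lower and 1 higher, against 12.3% and 18.8% of all genes, with a median change of -0.58 beside 0.05 over all genes.

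The 2 cancer lines were compared directly within each stage. In MDA-LM2 micro against MDA micro none of the 9 was called (0.412% of genes), and Tcf21 was lower in MDA-LM2 on every array (-0.38 ± 0.14, adjusted p = 0.365). In MDA-LM2 macro against MDA macro none was called (0.011% of genes); Foxf2 differed most, by -0.59 ± 0.19 (95% interval -1.03 to -0.14, adjusted p = 0.351), and Tcf21 by 0 with an interval of -0.34 to 0.34. The test of whether the stage change differed between lines called none (0.566% of genes). It gave -0.69 ± 0.23 for Foxf2 (adjusted p = 0.243) and -0.95 ± 0.39 for Tbx3 (adjusted p = 0.38). Without the third MDA-LM2 macro array the Foxf2 value was -0.91 with an adjusted p of 0.0434. More genes of the list were called against healthy in MDA-LM2 macro than in MDA macro. The direct tests of the lines called none of the 9, and the 2 counts were not themselves compared by a test.

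Markers of cell types moved with the stage as well, in a comparison where 18.8% of all genes were called higher and 12.3% lower. Alveolar fibroblast markers, the genes of the fibroblasts beside the air sacs, were called lower between stages for 7 of 7 measured, led by the FGF receptor gene Fgfr4 (-2.46 ± 0.20, adjusted p = 2.26e-06), the sodium channel gene Scn3a (-2.36 ± 0.12, adjusted p = 9.04e-08) and the carboxylesterase gene Ces1d (-1.54 ± 0.12). Their summed intensity was 36300 to 45200 in healthy, 40300 to 52100 over the micro arrays and 18600 to 27500 over the macro arrays. Adventitial fibroblast markers were called lower for 4 of 8, among them Scara5 (-1.57 ± 0.16), and higher for 1. Their summed intensity was 46700 to 54600 in healthy and already lower, at 35300 to 43200, over the micro arrays. Over the macro arrays it was 26200 to 34000. The median change of the list was -0.46 in each micro group against healthy and -0.29 between stages. Mesothelial markers were called higher for 7 of 8, among them Gpm6a (4.49 ± 0.22) and Wt1 (2.62 ± 0.27), a transcription factor of mesothelium. Their summed intensity was 910 to 1230 in healthy, 706 to 850 over the micro arrays, 2100 to 3810 in MDA macro and 5400 to 6600 in MDA-LM2 macro. Leukocyte markers were called higher for 3 of 8, Lyz2 (1.86 ± 0.28), Cd68 (1.46 ± 0.18) and Csf1r (1.27 ± 0.33), while Ptprc and Itgam stayed at or under 6.63; the sum of the list was 1190 to 1560 in healthy, 933 to 1270 over the micro arrays and 1610 to 3180 over the macro arrays.

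The selection genes themselves shifted, Pdgfra by -0.57 ± 0.09 (adjusted p = 0.000482) and Pdgfrb by 0.42 ± 0.10 (adjusted p = 0.00605) between stages. The part of these shifts in the falls of Tcf21, Foxf2 and the T-box genes, and in the rise of Gata6, was not tested. In bulk RNA of sorted cells, fewer cells of a type and less RNA per cell cannot be told apart.

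**Figure D4:**
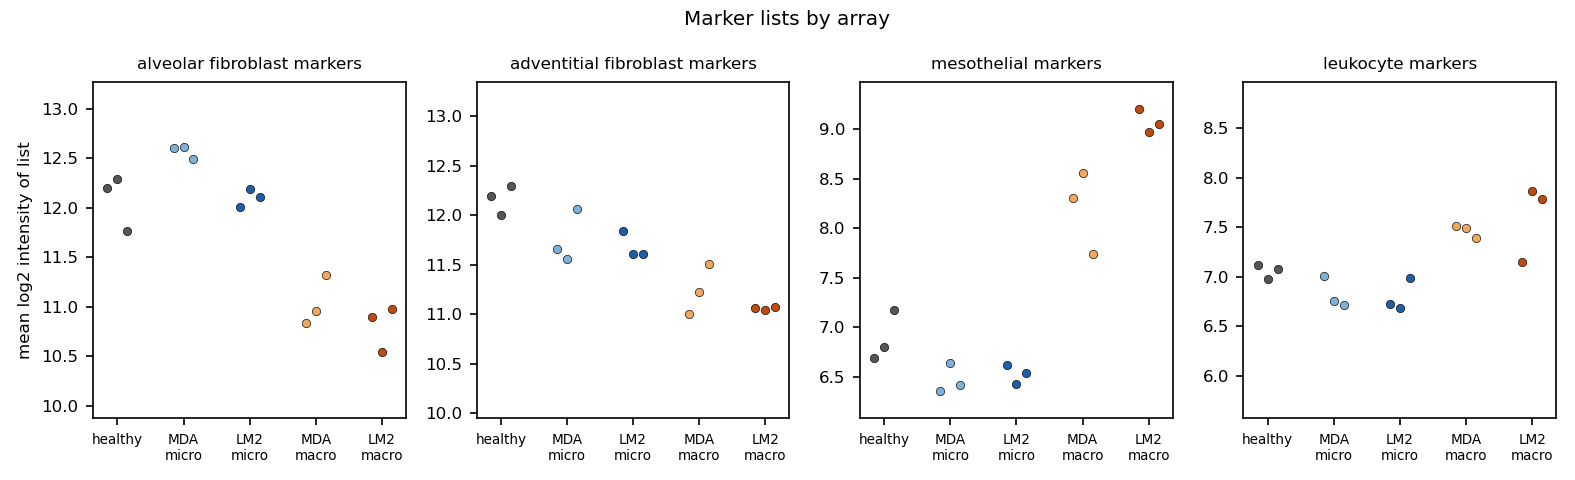
Mean log2 intensity (y axis) of 4 marker lists on the 15 arrays by group (x axis; LM2 stands for MDA-LM2), 1 point per array. Alveolar fibroblast markers average 10.54 to 11.32 on the macro arrays and at least 11.77 on the others, and mesothelial markers 7.74 to 9.2 on the macro arrays and at most 7.17 on the others.

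At the micrometastatic stage the MDA-LM2 arrays stood apart in smooth muscle markers and, for fewer genes, in pericyte markers. Against MDA micro, 6 of 8 smooth muscle markers and 2 of 8 pericyte markers were called higher, where 0.412% of all genes were called. The median changes were 1.54 and 0.79. Against healthy, 0 of 8 pericyte markers were called in MDA-LM2 micro. Which of the sorted cells made the RNA of these genes was not tested. Smooth muscle markers were called higher in MDA-LM2 micro against healthy for 8 of 8, led by Cnn1 (2.58 ± 0.31), Actg2 (2.30 ± 0.21) and Myocd (2.26 ± 0.19), with a summed intensity of 46100 to 47800 against 15400 to 21600. In MDA micro the sum was 19000 to 23300, and over the macro arrays 22500 to 27900. Between stages 4 of 8 were called lower and none higher, with a median change of -0.92 (Lmod1 -1.34 ± 0.31, Actg2 -1.10 ± 0.25), and for 5 of 8 the stage change differed between the lines, among them Myocd (-2.37 ± 0.31, adjusted p = 0.00769). Foxf1 and Tbx3, the members with the highest MDA-LM2 micro values relative to MDA micro, differed between these groups by 0.90 and 0.63 without being called, and the part of smooth muscle markers in that, or in the stage falls of Tcf21, Foxf2 and the T-box genes, was not tested.

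Genes known from mouse work to answer to the T-box factors were also read. Frzb, a secreted WNT antagonist that TBX2 represses in mouse lung mesenchyme, was at 7.16 to 8.76 on the healthy and micro arrays and at 9.93 to 10.6 on the macro arrays, a stage change of 2.77 ± 0.15 (adjusted p = 9.33e-08). Cdkn1a, which encodes the cell cycle inhibitor p21, was at 9.55 to 10.8 on the healthy and micro arrays and at 11.4 to 12.16 on the macro arrays (1.89 ± 0.15, adjusted p = 2.26e-06). The related inhibitor gene Cdkn1b moved the other way (-0.46 ± 0.08, adjusted p = 0.00123), and the WNT antagonist gene Shisa3 was not called. Against healthy, Frzb rose by 2 ± 0.29 in MDA macro and 2.40 ± 0.28 in MDA-LM2 macro, and Cdkn1a by 1.32 ± 0.18 and 1.07 ± 0.16. Of the 2 growth signal genes that TBX4 and TBX5 activate, Fgf10 read 9.41 to 10.71 on the healthy and micro arrays and 8.68 to 9.16 on the macro arrays (-0.95 ± 0.19, adjusted p = 0.00193), and Wnt2 was not called (-0.46 ± 0.21). Of the 6 genes, 2 were called higher and 2 lower in each macro comparison with healthy and between stages. Between stages 18.8% of all genes were called higher and 12.3% lower.

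Of 18 genes of the signals known to act on these factors (hedgehog, WNT, BMP, FGF and retinoic acid), 5 were called higher and 6 lower between stages. Among all genes, 18.8% were called higher and 12.3% lower. The median change was 0.09 beside 0.05 over all genes. The falls with the largest values were those of ligand genes: Fgf7, a growth factor for epithelium, read 11.61 to 12.28 on the healthy and micro arrays and 10.11 to 10.96 on the macro arrays (-1.48 ± 0.13, adjusted p = 4.71e-06), Wnt2b changed by -1.32 ± 0.12 and Bmp4 by -0.99 ± 0.09. Aldh1a2, which makes retinoic acid, rose by 1.71 ± 0.15 (adjusted p = 3.83e-06). It read 10.14 to 11.38 on the healthy and micro arrays and 11.81 to 12.41 on the macro arrays. Another gene of the retinoic acid group, Aldh1a1, went the other way. It read 12.23 to 12.79 on the healthy and micro arrays and 11.44 to 11.83 on the macro arrays.

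**Figure D5:**
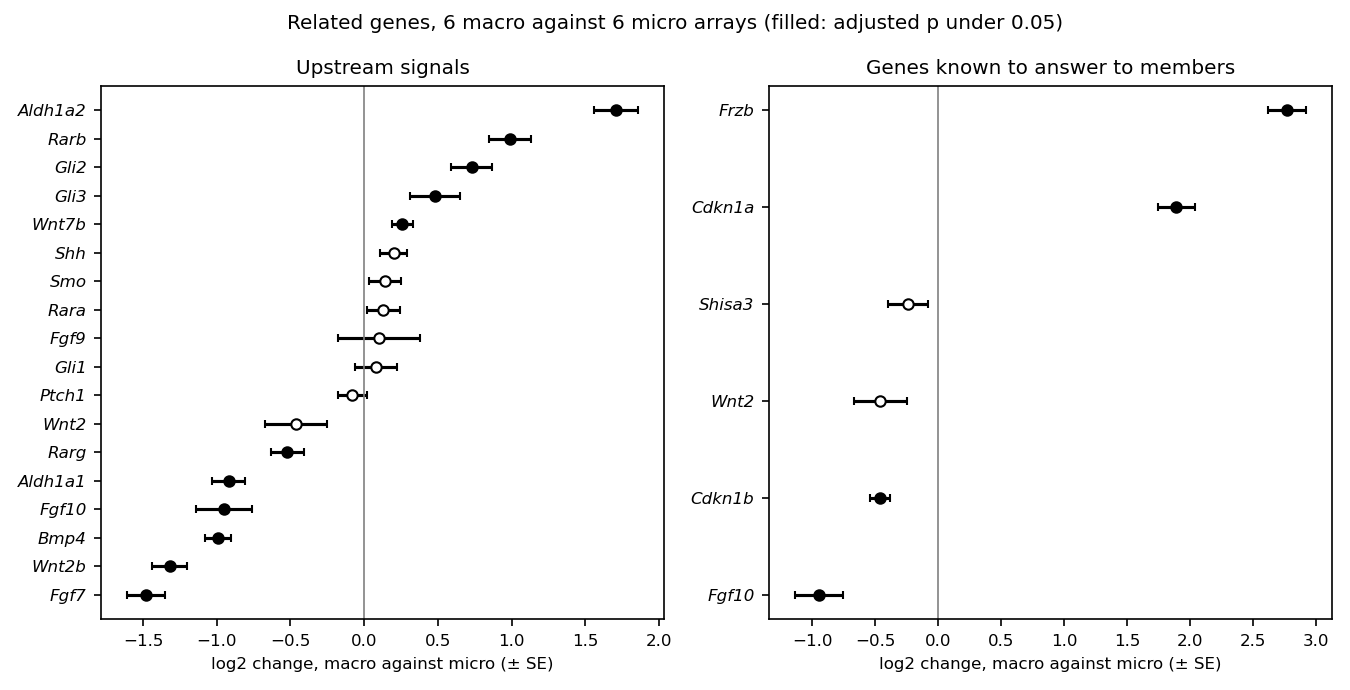
Log2 change with SE (x axis) between 6 macro and 6 micro arrays for 18 signal genes (left) and 6 genes known to answer to members of the list (right); filled points had an adjusted p under 0.05. Aldh1a2 and Frzb are at the top of their panels, at 1.71 and 2.77, and Fgf7 and Fgf10 at the bottom, at -1.48 and -0.95.

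Relatives of the 9 genes gave a mixed picture between stages, where 18.8% of all genes were called higher and 12.3% lower. Of 11 other T-box genes 3 were called, all higher: Tbx20 (0.98 ± 0.21), Tbx18 (0.82 ± 0.13) and Tbx15 (0.29 ± 0.08). Of 5 other GATA genes 3 were called higher, Gata4 (1.57 ± 0.20, adjusted p = 9.7e-05), Gata3 (0.80 ± 0.14) and Gata2 (0.51 ± 0.16). Gata4, a factor of heart and mesothelium, read 6.86 to 7.54 on the healthy and micro arrays, 7.61 to 8.43 in MDA macro and 8.98 to 9.66 in MDA-LM2 macro. The mesothelial sums were also highest in the macro groups, and their part in the Gata4 values was not tested.

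Among 8 other forkhead genes 2 were called in each direction between stages, beside 18.8% of all genes called higher and 12.3% called lower. Foxp2, a repressor made in lung epithelium, changed by -1 ± 0.17 and Foxc2, a factor of vessels and mesenchyme, by 1.13 ± 0.32. Foxc1, the neighbour of Foxf2, was called higher in MDA-LM2 when the micro groups were compared (1.54 ± 0.15, adjusted p = 0.0202), at 10.77 to 10.8 against 8.99 to 9.47, and its stage change differed between the lines (-1.99 ± 0.26, adjusted p = 0.00769). Foxd1 was called lower in both macro groups against healthy (-1.26 ± 0.31 and -2.08 ± 0.27).

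Of 12 other HOX genes of groups 1 to 5 that were measured, 3 were called higher and 3 lower between stages. The shares of all genes were 18.8% and 12.3%. Hoxb5, the paralogue of Hoxa5 in the HoxB cluster, read 10.73 to 11.32 on the healthy and micro arrays and 9.83 to 10.45 on the macro arrays (-1.04 ± 0.12, adjusted p = 5.36e-05), and Hoxc4 changed by 1.08 ± 0.19. Of 18 measured HOX genes of groups 6 to 13, 2 were called higher and 1 lower. Among 4 basic helix-loop-helix genes related to Tcf21, Twist1 rose by 1.46 ± 0.15 (adjusted p = 1.96e-05) and Tcf15 fell by 0.48 ± 0.14 on the log2 scale, and Twist2 was called lower in both macro groups against healthy (-0.97 ± 0.14 and -1.16 ± 0.18).

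The genes most like each member were found by Pearson correlation of log2 values over the 15 arrays among 9088 genes whose mean reached the median of all genes. They are given as a description, since the arrays share their groups and their processing. Tcf21 was closest to Wasf3, a regulator of actin, and Il6ra, the interleukin-6 receptor (both r = 0.975). Tbx4 was closest to Soga1 (0.955) and Dlc1 (0.951), Foxf2 to Adamts10 (0.952) and the activin receptor gene Acvr2a (0.933), Tbx2 to Fgfr4 (0.951) and Klhdc8b (0.944), Tbx5 to Ifitm1 (0.931) and Mtus1 (0.927), and Gata6 to Pianp (0.922) and Dram1 (0.909). Tbx3 (Ttc28, 0.899; Samd4, 0.872), Foxf1 (Erlec1, 0.862; Mgrn1, 0.836) and Hoxa5 (Dcaf17, 0.812; Rufy3, 0.752) had no gene above 0.9.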

How the data were processed

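Affymetrix whole-genome mouse expression arrays of 15 fibroblast samples were used. The authors normalized them by RMA in Chipster 3.8.0 and deposited intensity values on a linear scale (31 to 27897), which were turned into log2 here. Of 45100 probe sets, the 34944 that name 1 gene and are not controls were kept, and each of 18193 genes kept the probe set with the highest mean. Groups were compared in pairs with limma 3.58.1 in R 4.3.3, following the study's empirical Bayes test. The stage change came from a fit of 12 arrays with the line as a covariate and no interaction. The stage by line interaction came from a separate fit of the same 12 arrays, which also held stage and line. Fits of these kinds were tested on simulated data first. A call is a Benjamini-Hochberg adjusted p under 0.05. All members and their probe sets are named. Of each list of markers, signals, targets and relatives, at most 4 called genes with the largest change were eligible to be named. The genes used in the sort were named besides, Aldh1a1 was named beside Aldh1a2, and all 6 targets were named, called or not. The members and lists were chosen with earlier results of these data known. Array medians were 7.44 to 7.54, and array pairs correlated at 0.926 to 0.9842. Precision is limited by 3 arrays a group. The alternatives were another set of arrays in the fit, 2 normalizations, 2 treatments of probe sets, a filter on dim genes, leaving out each array, and the replicate number as a block.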

Additional observations from a re-analysis of the deposited data

How the results depend on the processing

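Counts of called genes of the list changed in some settings. In MDA macro against healthy the count was 1, but 3 in a fit of all 15 arrays (Tcf21, Foxf2, Tbx2), 2 on the mean of probe sets (Tcf21, Tbx3) and 1 to 2 when 1 array was left out. In MDA-LM2 macro against healthy it was 5, 6 in the fit of all 15 arrays, 4 on the mean of probe sets, and 1 to 4 when 1 array was left out. It was 1, not 0, for MDA-LM2 micro against MDA micro in the fit of all 15 arrays, and 0 to 1 for the interaction when 1 array was left out. Of 35 single values, 2 changed sign, neither called: Foxf1 in MDA-LM2 macro against healthy was 0.05 on the mean of probe sets, and Hoxa5 there ranged from -0.33 to 0.05 when 1 array was left out. Tbx3 in MDA-LM2 macro lost its call in the fit of all 15 arrays (adjusted p = 0.1). Both other scalings and the dim-gene filter left every count of called genes as it was. The cause of these changes was not tested.

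Replicate numbers did not pair the samples: deviations of same-numbered arrays from their group means correlated at -0.0652 to 0.0744 over 30 pairs, 0 of them above 0.1. With the replicate number as a block, 3 genes of the list were called in MDA-LM2 macro against healthy in place of 5, and the counts in the other 7 comparisons were the same.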

Other observations

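Lists of other cell types that the sort could have let through were read between stages with the same test. Among all genes, 18.8% were called higher and 12.3% lower there. Pericyte markers were called lower for 4 of 8, among them Cox4i2 (-1.94 ± 0.32, adjusted p = 0.000682) and Higd1b (-1.23 ± 0.27), and higher for 1. For 4 of 8 the stage change also differed between the lines, beside 0.566% of all genes, with a median difference of -1.59 over the list. Endothelial markers were called higher for 3 of 8 and lower for 1: the VEGF receptor gene Kdr rose by 4.03 ± 0.19 (adjusted p = 4.03e-08), while Tek, the angiopoietin receptor gene, changed by -1.91 ± 0.22. Epithelial markers were called lower for 2 of 8, Scgb1a1 (-3.11 ± 0.77), the secretoglobin gene of airway club cells, and Ager (-0.57 ± 0.08), a gene of flat alveolar cells. General fibroblast markers were called higher for 2 of 8 and lower for 2, with a median change of 0.09.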
